A study of Mus musculus with 4 samples.

Results

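Cycling tumour macrophages were 126 of the 10781 cell barcodes in 4 single-cell RNA-seq libraries of mouse mammary tumour formation, 123 in tumour 1 and 3 in tumour 2. A barcode was a member if it had at least 500 detected genes, at most 10% mitochondrial UMIs (unique molecular identifiers, each standing for 1 captured RNA molecule), no UMI of the epithelial gene Epcam or the T cell gene Cd3e, at least 3 UMIs of Tyrobp, at least 1 of Csf1r, at most 4 of Arg1, and at least 5 UMIs summed over Top2a, Mki67, Cdk1, Birc5 and Ube2c. The members were thus chosen by measured UMIs, and the genes of the rule are no finding. They were set against macrophage barcodes of the same tumour with none of those 5 cycle genes, 1236 in tumour 1 and 341 in tumour 2, called non-cycling macrophages below. Both tumours came from female mice of mixed background with floxed Trp53, floxed Brca1 and a Rosa26 YFP reporter (Trp53L/L;Brca1L/L;R26Y), in which Ad-K8-Cre, an adenovirus that expresses Cre from a keratin 8 promoter, had been injected into the mammary ducts; all groups share these alleles and this injection. The keratin 8 promoter marks luminal epithelial cells, and the library genotype Trp53/Brca1-null is given for the whole library, macrophages included. The labels give no age at tumour harvest and do not say how many mice a library holds; each tumour library held live DAPI-negative cells of 1 tumour mass. The other libraries held sorted YFP+ epithelial cells at about 2 weeks, with 1 macrophage-gated barcode, and YFP+ cells with CD45+ leukocytes at about 5 months, with 234; neither held a member.

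Macrophages are phagocytes of the myeloid lineage that in adult tissue come from circulating monocytes or from local division, and the receptor CSF1R, with its ligands CSF1 and IL-34, keeps them alive and can drive them to divide. Tyrobp encodes DAP12, an adaptor for activating myeloid receptors. In the cell cycle, E2F factors switch on genes for DNA replication before S phase, and a later set, under the MuvB complex with B-MYB and FOXM1 and the CCAAT-binding factor NF-Y, carries the cell through mitosis. Top2a untangles replicated DNA, Mki67 encodes a coat protein of mitotic chromosomes, Cdk1 is the mitotic kinase, Birc5 (survivin) belongs to the chromosomal passenger complex and Ube2c loads ubiquitin for the anaphase-promoting complex.

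Cycling members were deeper than their comparators. The median was 10141 UMIs per member in tumour 1 and 11502 in tumour 2, against 6276.5 and 6447 UMIs in non-cycling macrophages, and the summed UMIs were 1363756 and 33096 against 8184782 and 2250720; UMIs given for a gene below are to be read against these totals. Tumour 2 thus entered each comparison with 3 barcodes, and its member values carry wide counting error. In tumour 1, 7 members held 10 or more UMIs of epithelial and fibroblast marker genes, and these 7 carried 1577 of the 1647 fibroblast-marker UMIs of all members there; the counts of genes and the folds below were also computed without such barcodes, called mixed barcodes, in either population, except for 4 named genes that then failed the filter on low counts (Fam64a, Mxd3, Cdc25c and Dcn). Of the barcode sequences in tumour 1, 7 recurred in tumour 2 and 16 in the 5 months library, 1 of them a member in each case.

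The promoters of 3 rule genes are shown because the rule sums their transcripts, with 250 bases before and 50 after the annotated start, read 5′ to 3′ on the gene's strand (RefSeq, GRCm38.p6). Capitals mark matches, on either strand, to CCAAT (the NF-Y box, ATTGG on the other strand) and to TTTGAA (a core of the cell cycle homology region, TTCAAA on the other strand). The windows are chr11:99024140-99024439, minus strand for Top2a, chr10:69352863-69353162, minus strand for Cdk1 and chr2:164769679-164769978, plus strand for Ube2c.
Top2a: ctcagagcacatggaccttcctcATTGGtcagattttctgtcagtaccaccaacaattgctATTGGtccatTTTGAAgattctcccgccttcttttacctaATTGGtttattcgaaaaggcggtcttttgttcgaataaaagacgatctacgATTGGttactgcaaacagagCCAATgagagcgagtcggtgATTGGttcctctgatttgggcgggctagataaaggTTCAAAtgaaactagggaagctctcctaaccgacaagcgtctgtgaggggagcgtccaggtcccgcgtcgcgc
Cdk1: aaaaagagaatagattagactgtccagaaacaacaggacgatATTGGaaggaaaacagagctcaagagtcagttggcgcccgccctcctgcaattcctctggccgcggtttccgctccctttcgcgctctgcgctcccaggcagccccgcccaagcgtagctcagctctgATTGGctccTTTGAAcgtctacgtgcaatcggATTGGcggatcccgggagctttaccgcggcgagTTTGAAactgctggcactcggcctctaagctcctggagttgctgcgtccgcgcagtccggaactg
Ube2c: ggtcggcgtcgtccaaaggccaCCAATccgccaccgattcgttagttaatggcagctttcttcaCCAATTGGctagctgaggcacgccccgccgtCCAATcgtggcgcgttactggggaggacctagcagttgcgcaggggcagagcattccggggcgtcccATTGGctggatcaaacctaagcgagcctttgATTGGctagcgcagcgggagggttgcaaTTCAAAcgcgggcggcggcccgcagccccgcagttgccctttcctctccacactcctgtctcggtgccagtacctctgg
Top2a held 6 CCAAT and 2 TTTGAA matches, Cdk1 3 and 2, and Ube2c 6 and 1, of which one CCAAT pair shares 2 bases. Mki67 held 3 and 2, and the Birc5 window held neither. Of 27025 promoters of this length, 37.9% held CCAAT and 18.1% held TTTGAA. Among the 38 promoters found for a list of 46 mitosis genes, 29 held CCAAT and 28 held TTTGAA. TTTNNCGC, an E2F-type motif searched on both strands, was in 7 of 13 promoters of the licensing list, 6 of 19 of the DNA synthesis list and 5.27% of all promoters. These replication promoters also held CCAAT, in 8 of 13 and 10 of 19, and TTTGAA in 3 and 2 of them. A match is a string of letters in this window and not a shown binding site.

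Cycling macrophages made up 7.39% of the macrophage-gated barcodes of tumour 1 (123 of 1665, exact Clopper-Pearson 95% interval 6.18 to 8.75%) and 0.787% of those of tumour 2 (3 of 381, 0.163 to 2.28%). At 5 months none of 234 met the rule, which allows a share of up to 1.28% at a limit of 3 counts, used for each count of 0 below. Intervals and limits of this kind cover counting error only. After each barcode was thinned to 4000 UMIs, the rule was met by 3.61% in tumour 1 (57 of 1579) and by 0 of 342 in tumour 2, which allows up to 0.877%. With a limit of 2 cycle UMIs at the same depth, the shares were 10.3% in tumour 1 (8.87 to 11.9%), 1.75% in tumour 2 (0.646 to 3.78%) and 3.45% at 5 months (3 of 87, 0.717 to 9.75%). The 2 tumour intervals did not overlap, while the 5 months interval overlapped both. With 1 library per tumour, mouse, tumour and library cannot be told apart. The mean of the 2 tumours was 4.09% ± 4.67 (SD, n = 2).

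**Figure D1:**
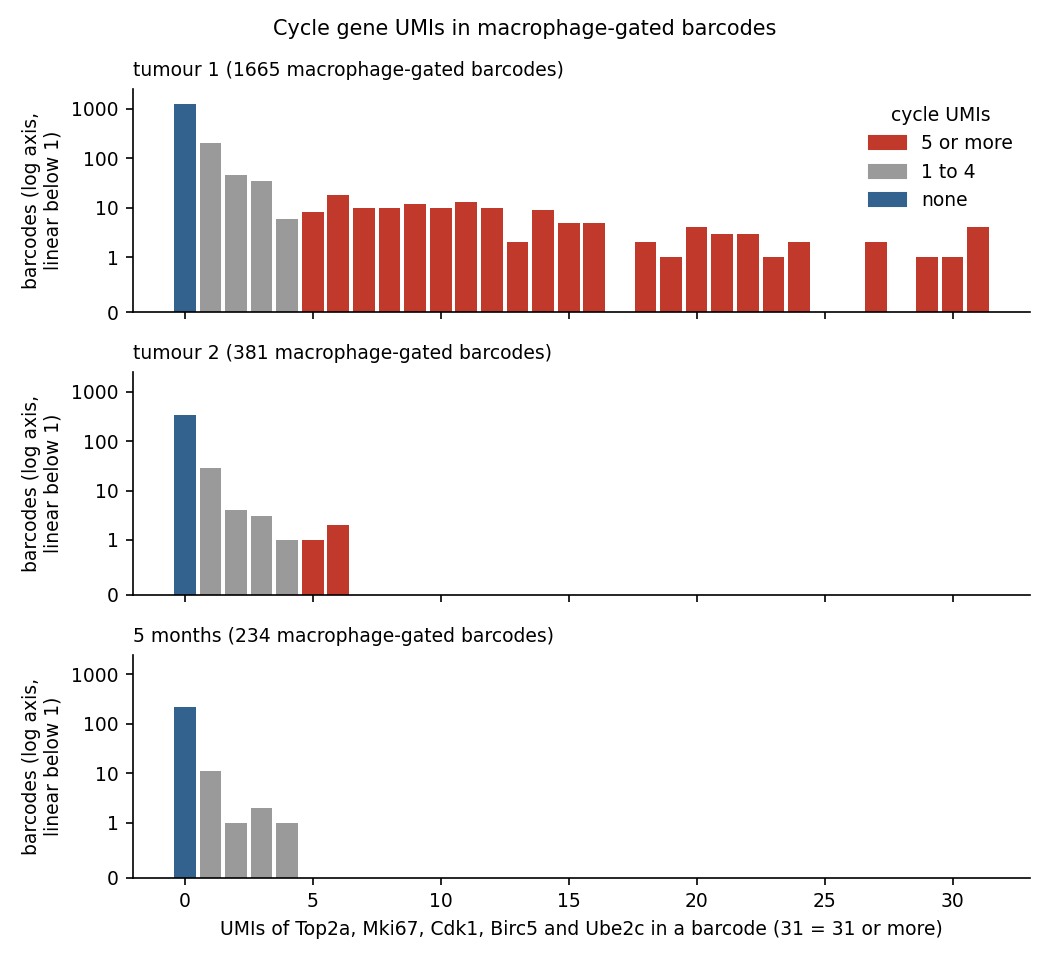
Number of macrophage-gated barcodes (log axis, linear below 1) by their summed UMIs of Top2a, Mki67, Cdk1, Birc5 and Ube2c in tumour 1, tumour 2 and the 5 months library. Red marks 5 or more UMIs (136 barcodes in tumour 1, of which 13 had over 4 Arg1 UMIs and were left out, and 3 in tumour 2), grey 1 to 4 (293, 37 and 15) and blue none (1236, 341 and 219).

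The limits cut a continuous range. In tumour 1, 7 members had exactly 5 cycle UMIs and 6 barcodes missed with 4; 15 had exactly 1 Csf1r UMI and 14 missed with none; 4 had 4 Arg1 UMIs and 1 missed with 5; and 11 missed by an Epcam UMI alone. Arg1 was at 0 in 106 of the 123 members. Within tumour 1, at 4000 UMIs and a limit of 2 cycle UMIs, 6% of macrophages with over 4 Arg1 UMIs passed (15 of 250, 3.40 to 9.70%), against 11.1% of those with at most 4 (148 of 1329, 9.49 to 12.95%). In tumour 2 these were 0 of 31, which allows up to 9.68%, against 1.93%. Epcam-positive, Tyrobp-negative barcodes at that depth and limit passed at 14.8% in tumour 1 and 5.02% in tumour 2, so both cell classes had the higher share in tumour 1.

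Every member had the label's macrophage genes by rule, at a median of 27 Tyrobp and 4 Csf1r UMIs in tumour 1. Complement C1q, which the rule did not use and which marks tissue macrophages, was found in nearly all: in tumour 1, C1qa had UMIs in 99.2% of members (median 54 UMIs) and in 97.7% of non-cycling macrophages (median 42 UMIs). C1qa summed to 4964 CPM in cycling macrophages of tumour 1, against 37.5 CPM in its Epcam-positive, Tyrobp-negative cycling barcodes. CPM is a gene's UMIs as a share of all UMIs of the population, scaled to the same total for each. A C1qa UMI was also found in 42.4% of all Epcam-positive, Tyrobp-negative barcodes of tumour 1, at a median depth of 11013 UMIs, so the share alone does not mark a macrophage. In tumour 2, 2 of the 3 members had C1qa, against 73.3% of non-cycling macrophages. T and NK cell markers summed to 6.60 CPM in the members of tumour 1 and 151 CPM in those of tumour 2 (5 UMIs, all in 1 barcode), against 11.9 and 56.9 CPM in non-cycling macrophages. The summed levels matched the label in tumour 1, while in tumour 2 the complement genes rest on 2 barcodes.

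The rule genes are given as a description, since they chose the members. Top2a had 515 and 2 UMIs in cycling against 0 and 0 UMIs in non-cycling macrophages of the 2 tumours. Birc5 had 432 and 9 UMIs in cycling macrophages, Ube2c 271 and 2, Mki67 219 and 4, and Cdk1 113 and 0, all against 0 in non-cycling macrophages by rule. In tumour 1 the 5 genes summed to a median of 10 UMIs and at most 76 per member, and 2, 13, 35, 41 and 32 members had 1, 2, 3, 4 and all 5 of them. The 3 members of tumour 2 had at most 6 cycle UMIs and 2 or 3 of the genes.

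Phase differed among members. Replication genes (a licensing list and a DNA synthesis list) summed to 18.96 UMIs per 10000 at the median of tumour 1 members, with a range of 1.34 to 53.7, and mitosis genes (none of them a rule gene) to 30.2, with a range of 5.46 to 81.7. In 55 of the 123 members mitosis UMIs were over 2 times the replication UMIs, in 6 the reverse held, and 62 lay between. This split is not independent of the rule, whose 5 genes act mostly in mitosis, so barcodes early in S phase were less likely to be members. The lists also differ in size (16 and 22 replication genes against 45 mitosis genes), so the split does not measure the phases of dividing macrophages in the tumour. Spearman's rho between the 2 sums was −0.20 over the 123 barcodes, which share 1 library and each barcode's depth as divisor. In tumour 2 the replication sums were 3.09, 22.6 and 22.7 and the mitosis sums of the same barcodes 33.0, 15.6 and 14.3 UMIs per 10000, the first on the mitosis side and the others between.

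**Figure D2:**
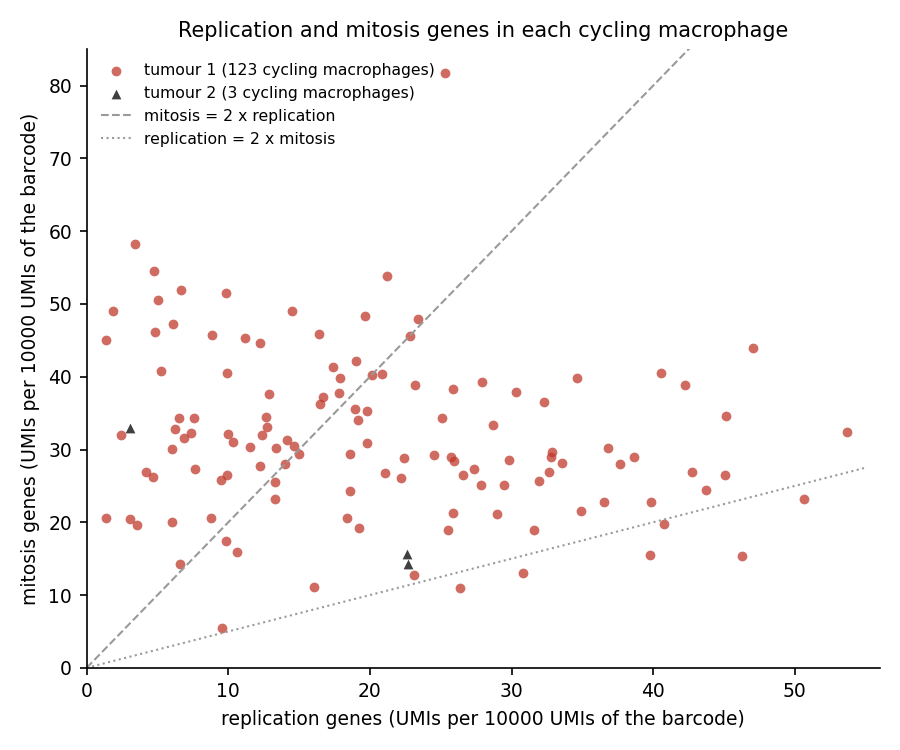
Replication-gene against mitosis-gene UMIs per 10000 UMIs in each cycling macrophage (123 of tumour 1, circles; 3 of tumour 2, triangles). Above the dashed line, where 55 tumour 1 members lie, mitosis UMIs are over 2 times replication UMIs; below the dotted line, with 6 members, the reverse holds.

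Among the cell cycle lists, which follow from the rule and are described without a test, mitosis genes stood furthest above the non-cycling level. The median log2 fold over tested members was 4.49 for mitosis and cytokinesis (25 of 45 genes passed the filter on low counts). It was 2.68 for DNA synthesis (18 of 22), 2.70 for homologous recombination (7 of 23) and 1.88 for licensing (12 of 16). For histones and histone chaperones, a list that also holds tubulin genes, it was 2.29 (19 of 23). Over all 8160 genes it was −0.08. Genes that passed the filter through the cycling sums alone had to differ, so these medians are no more than a summary. Ccna2, the cyclin of S phase and G2, stood at 71.9 CPM in the cycling macrophages of tumour 1 and 60.4 CPM in those of tumour 2, against 1.10 and 0 CPM in the non-cycling macrophages. Hmmr, a spindle-assembly protein, had 64 and 1 UMIs in cycling against 3 and 0 UMIs in non-cycling macrophages. Rrm2, the ribonucleotide reductase subunit that supplies S phase with deoxynucleotides, stood at 68.2 and 60.4 CPM in cycling against 2.20 and 0.444 CPM in non-cycling macrophages. Non-cycling macrophages held few UMIs of each.

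Levels in non-cycling macrophages differed between cycle genes. The histone variant H2afz stood at 3511 and 6073 CPM in cycling macrophages of tumour 1 and tumour 2, against 1107 and 1535 CPM in non-cycling ones. The sliding clamp Pcna stood at 211 and 151 CPM in cycling against 68.4 and 63.1 CPM in non-cycling macrophages. The licensing factor Cdt1, which is degraded once S phase starts, stood at 35.2 and 0 CPM in cycling against 27.4 and 39.5 CPM in non-cycling macrophages. The centromere histone Cenpa stood at 467 and 483 CPM in cycling against 275 and 198 CPM in non-cycling macrophages. Prc1, which bundles the central spindle, had 104 and 0 UMIs in cycling against 9 and 3 UMIs in non-cycling macrophages. Cdca3 had 223 and 0 UMIs in cycling against 22 and 4 UMIs in non-cycling macrophages; neither passed the filter on low counts. H2afz, Pcna, Cdt1, Cenpa, Prc1 and Cdca3 were chosen after their values were seen.

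Cycling and non-cycling macrophages were compared in each gene's UMIs summed per tumour and population, with the tumour as a block (edgeR's quasi-likelihood F test, Benjamini-Hochberg at 0.05, 1 residual degree of freedom). Outside the rule genes, 276 of 8160 genes were higher in cycling macrophages (3.38%) and 158 were lower (1.94%); 1162 had an unadjusted p under 0.05. Of the 276, 206 were outside the 5 cell cycle lists and 196 lay on the same side in both tumours; of the 158, all were outside those lists and 156 lay on the same side. In the 3 members of tumour 2, 71 of the 276 and 54 of the 158 had 0 UMIs. A gene at 0 there counts as lower wherever non-cycling macrophages had a UMI, so the same side was fixed for most such genes among the 158. The 156 of 158 are thus no measure of agreement between the tumours. Where a gene was at 0 there and its non-cycling level predicts under 3 UMIs in so small a sum, tumour 2 shows no direction, and such a gene is given below as lower in tumour 1. Without barcodes holding 10 or more epithelial and fibroblast marker UMIs, 211 were higher (2.68%) and 164 lower (2.08%), and 188 of the 276 and 133 of the 158 were called again. In tumour 1 alone, 427 of 5585 genes of at least 20 CPM were at least 2-fold higher (7.65%) and 228 at least 2-fold lower (4.08%), with no test. With comparators matched in depth 3.27% of genes were higher and 1.73% lower, and with comparators limited in Arg1 3.24% were higher and 1.53% lower. Matching in depth left 323 comparators in tumour 1 and 15 in tumour 2, with 2935750 and 162733 UMIs. Folds and calls that change in that setting can thus follow from depth or from the loss of comparators, which was not tested. CPM in the text divides by each sum's total, while folds use TMM-scaled totals and so run lower than CPM ratios; scaled by totals alone, the median gene stood at 0.18 in place of −0.08, and the split was 479 higher and 123 lower. Changes are given on the TMM scale. Each p-value rests on 1 library per tumour and on spread estimated over all genes together. Genes that passed the filter on low counts through the sums of 1 population alone had to be higher in it, so their p-values are no support. Examples are Melk and Cdkn2c among the 276, and Ccl17, Ccl22, Il10, Egln3, Gpnmb and Rnase2a among the 158.

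**Figure D3:**
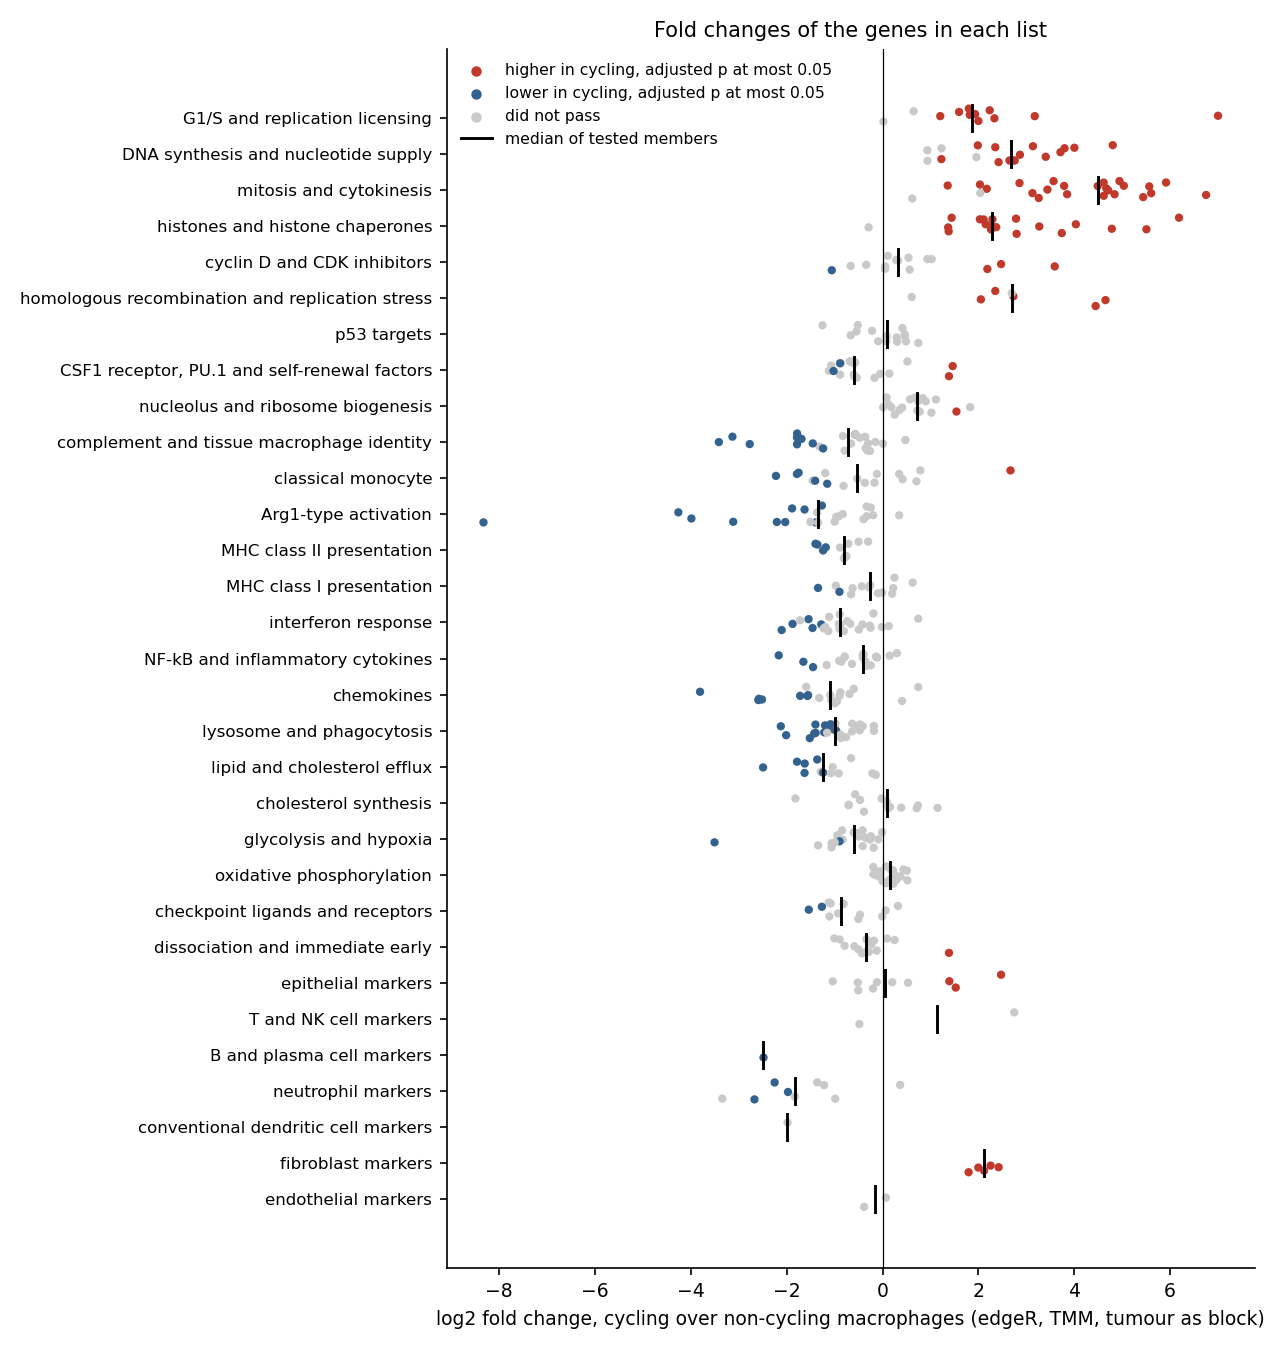
Log2 fold change of each tested gene, cycling over non-cycling macrophages, by gene list (edgeR, tumour as block). Red and blue points passed at an adjusted p of 0.05, grey did not, and the black bar is the median of tested members, from 4.49 for mitosis down to −1.34 for Arg1-type activation among the lists of macrophage and cell cycle function.

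The 10 largest rises outside the cell cycle lists included further genes of division. Melk, Kif15 and Fam64a passed the filter on low counts through the cycling sums alone, so their rise was fixed in advance and they are described without a test. The kinase Melk had 31 and 2 UMIs in cycling against 1 and 2 UMIs in non-cycling macrophages (log2 fold 6.34). The spindle motor Kif15 had 35 and 1 UMIs in cycling against 3 and 0 UMIs in non-cycling macrophages (log2 fold 5.96). 2810417H13Rik, which encodes the PCNA-associated factor PAF15, stood at 623 and 483 CPM in cycling against 13.6 and 4.44 CPM in non-cycling macrophages (higher in both tumours, log2 fold 5.56, SE 0.43, edgeR adjusted p = 5.04e-34). The histone gene Hist1h2ak, Stil of the centriole, Ncapg of condensin, Cep55 of cytokinesis, Mxd3 and the phosphatase Cdc25c also rose. Their log2 folds were 6.76, 5.85, 5.63, 5.28, 5.50 and 5.27, described without a test. Fam64a was at 0 in non-cycling macrophages and at 11.0 CPM in cycling macrophages of tumour 1, at least 30.0-fold higher against a floor of 3 UMIs in that sum. DESeq2 left Fam64a uncalled (adjusted p = 0.616), and it failed the filter with depth-matched comparators and with every barcode thinned. The tumour 2 members held 1 UMI each of Hist1h2ak, Kif15, Stil, Ncapg, Cep55, Mxd3 and Cdc25c. In so small a sum 1 UMI is 30.2 CPM, enough to count for the filter, so these genes could pass it through the cycling sums alone. Histone genes of 1 cluster are near-copies between which counting can split reads.

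Cyclin D genes and CDK inhibitors, which set and brake entry into the cycle, did not share a direction. Of 15 tested genes of the cyclin D and CDK inhibitor list, 3 rose and 1 fell (median 0.33). Of those that rose, Cdkn2c and Rbl1 passed the filter on low counts through the cycling sums alone, so their rise was fixed in advance. They are described without a test. Cdkn2c, the CDK4/6 inhibitor p18, stood at 51.3 and 60.4 CPM in cycling against 3.67 and 3.11 CPM in non-cycling macrophages (log2 fold 3.59). Rbl1, the pocket protein p107, had 26 and 1 UMIs in cycling against 29 and 12 UMIs in non-cycling macrophages (log2 fold 2.19). Cdkn2a, which encodes p16 and p19Arf, stood at 71.1 and 30.2 CPM in cycling against 10.0 and 15.1 CPM in non-cycling macrophages (higher in tumour 1, log2 fold 2.47, SE 0.35, edgeR adjusted p = 1.60e-10). Its 30.2 CPM in tumour 2 is 1 UMI, which shows no direction there. Without mixed barcodes its log2 fold was 1.21 at an edgeR adjusted p of 0.173. Cycling Epcam-positive, Tyrobp-negative barcodes held Cdkn2a at 540.1 and 724 CPM. Btg1, an antiproliferative gene, stood at 721 and 1632 CPM in cycling against 1294 and 2318 CPM in non-cycling macrophages (lower in both tumours, log2 fold −1.06, SE 0.23, edgeR adjusted p = 1.44e-04); with comparators matched in depth its adjusted p was 0.0513. Cyclins D1, D2 and D3 and the inhibitor Cdkn1a did not pass.

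Recombination genes, a list that follows from the rule, are described without a test. Tipin, of the fork protection complex, had 156 and 1 UMIs in cycling against 103 and 31 UMIs in non-cycling macrophages. Brca1 itself had 14 and 0 UMIs in cycling against 3 and 3 UMIs in non-cycling macrophages. In tumour 1 this is 10.3 CPM (exact Poisson 95% interval 5.61 to 17.2) in cycling and 0.367 CPM (0.0756 to 1.07) in non-cycling macrophages. In the 18 cycling Epcam-positive, Tyrobp-negative barcodes of tumour 1 Brca1 had 0 UMIs (exact Poisson 95% interval 0 to 11.5 CPM), so the difference from macrophages was not detectable at this depth. Trp53 stood at 28.6 and 121 CPM in cycling against 28.2 and 66.2 CPM in non-cycling macrophages (lower in 1 of 2 tumours, log2 fold −0.09, SE 0.46, edgeR adjusted p = 0.974), and none of 15 tested p53 target genes passed (median 0.08). The 3′ tags counted here need not lie in the deleted exons, so neither gene checks recombination.

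Genes for the CSF1 receptor and the factors that set macrophage identity mostly did not pass. Csf1r, which the rule required at 1 UMI, stood at 454 and 302 CPM in cycling against 512 and 439 CPM in non-cycling macrophages. The myeloid factor PU.1, Spi1, stood at 276 and 453 CPM in cycling against 301 and 610.5 CPM in non-cycling macrophages (lower in both tumours, log2 fold −0.57, SE 0.31, edgeR adjusted p = 0.398). Maf, a factor that restrains self-renewal in mouse macrophages, had 31 and 3 UMIs in cycling against 338 and 74 UMIs in non-cycling macrophages. The growth gene Myc had 18 and 1 UMIs in cycling against 65 and 33 UMIs in non-cycling macrophages. Of 19 tested genes of the list of CSF1R, PU.1 and self-renewal factors, 2 rose, 2 fell and 15 did not pass. Zeb2, a transcriptional repressor, fell (274 and 212 CPM in cycling against 342 and 642 CPM in non-cycling macrophages; lower in both tumours, log2 fold −1.02, SE 0.32, edgeR adjusted p = 0.0276). Id2, an inhibitor of DNA binding by helix-loop-helix factors, also fell (479 and 967 CPM in cycling against 739.8 and 1272 CPM in non-cycling macrophages; lower in both tumours, log2 fold −0.89, SE 0.26, edgeR adjusted p = 0.0127). With depth-matched comparators their edgeR adjusted p-values were 0.231 and 0.523. Without mixed barcodes that of Zeb2 was 0.0744. Those that rose, Egr1 (1.39) and Id3 (1.46), had 0 UMIs in tumour 2 members, and without mixed barcodes their log2 folds were −2.46 and −1.53. The growth factor gene Csf1 had 16 and 0 UMIs in cycling against 73 and 16 UMIs in non-cycling macrophages. The other ligand gene, Il34, had 3 and 0 UMIs in cycling against 1 and 2 UMIs in non-cycling macrophages. Spi1, Maf, Myc, Csf1 and Il34 were named after their values were seen.

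Of 24 tested genes of complement and tissue macrophage identity, 10 fell and none rose (median −0.72), against 5 without the tumour block. Apoe, the lipid-carrier apolipoprotein, stood at 10615 CPM in the cycling macrophages of tumour 1 and 8642 CPM in those of tumour 2, against 30114 and 21223 CPM in the non-cycling macrophages (lower in both tumours, log2 fold −1.78, SE 0.14, edgeR adjusted p = 4.37e-32). Folr2, a folate receptor of resident macrophages, had 12 and 0 UMIs in cycling against 546 and 16 UMIs in non-cycling macrophages (lower in tumour 1, log2 fold −3.13, SE 0.51, edgeR adjusted p = 5.71e-08). The phospholipid transfer protein Pltp had 11 and 0 UMIs in cycling against 594 and 98 UMIs in non-cycling macrophages (lower in tumour 1, log2 fold −3.41, SE 0.61, edgeR adjusted p = 1.69e-06). Gas6, the bridging ligand for dying cells, and the carbonyl reductase Cbr2 fell by 1.78 and 2.77 on the log2 scale (edgeR adjusted p = 0.00214 and 0.00565), both with 0 UMIs in tumour 2 members. DESeq2 left Folr2 and Gas6 uncalled (adjusted p = 0.117 and 0.422). The C1q chains had small folds: C1qa stood at 4964 and 3958 CPM in cycling against 6586 and 3829 CPM in non-cycling macrophages, with a log2 fold of −0.57 (edgeR adjusted p = 0.0284; 0.141 without mixed barcodes and 0.615 with members from 3 cycle UMIs). C1qb and C1qc did not pass, with folds of −0.32 and −0.30 that turn to 0.05 and 0.07 when scaled by totals alone. Lyve1 and Cd163, of perivascular resident macrophages, had no UMI in either sum of members and 56 and 38 in the non-cycling macrophages of tumour 1.

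Classical monocyte genes did not share a direction. Of 17 tested, 1 rose and 5 fell (median −0.53). Lysozyme Lyz2 stood at 5314 and 3928 CPM in cycling against 12597 and 6789 CPM in non-cycling macrophages (lower in both tumours, log2 fold −1.41, SE 0.17, edgeR adjusted p = 1.11e-14). The lipopolysaccharide co-receptor Cd14 stood at 920.3 and 665 CPM in cycling against 1839 and 2906 CPM in non-cycling macrophages (lower in both tumours, log2 fold −1.79, SE 0.23, edgeR adjusted p = 1.86e-12). F13a1, coagulation factor XIII, stood at 13.2 and 30.2 CPM in cycling against 55.3 and 67.5 CPM in non-cycling macrophages (lower in tumour 1, log2 fold −2.22, SE 0.56, edgeR adjusted p = 0.00225). Its 30.2 CPM in tumour 2 is 1 UMI, which shows no direction there. Ccr2, the receptor that brings monocytes into tissue, stood at 79.9 and 60.4 CPM in cycling against 66.5 and 95.5 CPM in non-cycling macrophages and did not pass. Ly6c2, a surface antigen of classical monocytes, had 33 and 1 UMIs in cycling against 58 and 393 UMIs in non-cycling macrophages, the 33 UMIs of tumour 1 in 4 of 123 members and 30 of them in 1. Vcan rose (higher in both tumours, log2 fold 2.67, SE 0.48, edgeR adjusted p = 2.41e-06), but without mixed barcodes the adjusted p was 0.654. Against comparators matched in depth, of which tumour 2 had 15, 5 rose (Ly6c2, Plac8, Chil3, Vcan and S100a6) and 4 fell. Without mixed barcodes none rose and 6 fell. DESeq2 left Cd14 and F13a1 uncalled (adjusted p = 0.144 and 0.138).

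Of 28 tested lysosomal and phagocytic genes 14 fell and none rose; all 28 lay below the non-cycling level in tumour 1, and the median was −0.99. Without the tumour block 3 fell. The protease Ctsl stood at 133 and 151 CPM in cycling against 497 and 455 CPM in non-cycling macrophages (lower in both tumours, log2 fold −2.12, SE 0.35, edgeR adjusted p = 1.58e-07). Its 5 UMIs in tumour 2 members lay in 1 of 3 barcodes. Ctsd, another protease, stood at 554 and 181 CPM in cycling against 1155 and 573 CPM in non-cycling macrophages (lower in both tumours, log2 fold −1.52, SE 0.29, edgeR adjusted p = 1.08e-05). Among the Fc receptors, Fcgr4 had 48 and 0 UMIs in cycling against 921 and 161 UMIs in non-cycling macrophages (lower in tumour 1, log2 fold −2.01, SE 0.52, edgeR adjusted p = 0.00325). The inhibitory Fcgr2b stood at 197 and 181 CPM in cycling against 422 and 409.6 CPM in non-cycling macrophages (lower in both tumours, log2 fold −1.43, SE 0.34, edgeR adjusted p = 0.00119). With depth-matched comparators, 14 of the list fell and none rose; with every barcode thinned the adjusted p-values of Ctsd and Fcgr2b were 0.07 and 0.318.

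Antigen presentation by MHC class II was lower in its most abundant members. Of 11 tested genes 4 fell, none rose, and all 11 lay below the non-cycling level in tumour 1 (median −0.81). The invariant chain Cd74 stood at 13472 CPM in the cycling macrophages of tumour 1 and 10485 CPM in those of tumour 2, against 23273 and 23688 CPM in the non-cycling macrophages (lower in both tumours, log2 fold −1.36, SE 0.14, edgeR adjusted p = 7.13e-19). H2-Aa, the alpha chain of I-A, stood at 3692 and 3777 CPM in cycling against 6716 and 8707 CPM in non-cycling macrophages (lower in both tumours, log2 fold −1.40, SE 0.17, edgeR adjusted p = 2.53e-13; DESeq2 adjusted p = 0.0547). H2-Ab1 and the invariant-chain protease Ctss fell by 1.24 and 1.18 on the log2 scale (edgeR adjusted p = 1.02e-10 and 1.16e-07). Single barcodes overlapped widely: in tumour 1 the 10th, 50th and 90th percentiles of Cd74 were 12.5, 135 and 294 UMIs per 10000 in cycling against 35.98, 227 and 501 in non-cycling macrophages. With every barcode thinned to 4000 UMIs none of the 4 was called, at edgeR adjusted p-values of 0.258 for Cd74 and 0.197 for H2-Aa. Of 14 tested MHC class I genes, H2-D1 and B2m fell (−1.35 and −0.90; edgeR adjusted p = 4.18e-09 and 5.75e-05) and none rose.

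Chemokine genes fell in 7 of 19 tested, and none rose (median −1.09). Ccl6 stood at 216 and 181 CPM in cycling against 985 and 1058 CPM in non-cycling macrophages (lower in both tumours, log2 fold −2.58, SE 0.30, edgeR adjusted p = 1.21e-15). Its 6 UMIs in tumour 2 members lay in 1 of 3 barcodes. Ccl4, an inflammatory chemokine, stood at 81.4 and 30.2 CPM in cycling against 298 and 829 CPM in non-cycling macrophages (lower in both tumours, log2 fold −2.59, SE 0.35, edgeR adjusted p = 2.40e-11; DESeq2 adjusted p = 0.21). Ccl22, a CCR4 ligand, had 3 and 0 UMIs in cycling against 220 and 21 UMIs in non-cycling macrophages (lower in tumour 1, log2 fold −3.81). Outside the list, the other CCR4 ligand Ccl17 had 1 and 0 UMIs in cycling against 354 and 93 UMIs in non-cycling macrophages (lower in tumour 1, log2 fold −6.04). Both passed the filter on low counts through the non-cycling sums alone, so their fall was fixed in advance. They are described without a test, and Ccl22 is among the 7. Ccl8 stood at 129 and 0 CPM in cycling against 603 and 77.3 CPM in non-cycling macrophages (lower in tumour 1, log2 fold −2.52, SE 0.43, edgeR adjusted p = 3.08e-07), but against depth-matched comparators its log2 fold was −0.05; in that comparison 4 chemokine genes fell and Ccl2 rose. In the inflammatory cytokine list 3 of 21 tested fell and none rose. Il1b stood at 162 and 181 CPM in cycling against 356 and 2051 CPM in non-cycling macrophages (lower in both tumours, log2 fold −2.17, SE 0.28, edgeR adjusted p = 3.81e-12). The neutrophil attractants Cxcl2 and Cxcl3 had log2 folds of −1.45 and −1.65 (edgeR adjusted p = 5.84e-07 and 0.0276). Neutrophil markers moved with these: they summed to 309 and 695 CPM in cycling against 493 and 7654 CPM in non-cycling macrophages, S100a8 fell by 2.25 on the log2 scale (edgeR adjusted p = 2.95e-15), and their part in Il1b, Cxcl2 and Cxcl3 was not tested. With members taken from 3 cycle UMIs, the log2 fold of Il1b was −0.47 (edgeR adjusted p = 0.0845). DESeq2 left Il1b, Cxcl2 and Cxcl3 uncalled (adjusted p = 0.339, 0.299 and 0.814).

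Interferon-response genes fell in 5 of 25 tested and none rose (median −0.90), against 1 without the tumour block. Rsad2, the antiviral enzyme viperin, had 54 and 0 UMIs in cycling against 948 and 520 UMIs in non-cycling macrophages (lower in both tumours, log2 fold −2.10, SE 0.46, edgeR adjusted p = 2.76e-04). Isg15, a ubiquitin-like modifier, had 166 and 0 UMIs in cycling against 1745 and 535 UMIs in non-cycling macrophages (lower in both tumours, log2 fold −1.46, SE 0.41, edgeR adjusted p = 0.00924). With members taken from 3 cycle UMIs the adjusted p of Isg15 was 0.174. With depth-matched comparators 2 fell, and the adjusted p-values of Isg15 and Ifit1 were 0.126 and 0.0608. In the 3 members of tumour 2, 4 of the 5 were at 0 and Ifitm3 had 8 UMIs. DESeq2 left 4 of the 5 uncalled, Rsad2 and Isg15 at adjusted p-values of 0.616 and 0.851.

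The Arg1-type activation list is not independent of the rule, which held members to 4 Arg1 UMIs. Of 23 tested genes other than Arg1, 10 fell and none rose (median −1.34); against comparators held to the same Arg1 limit, 9 fell and the median was −1.02. Mmp12, macrophage elastase, stood at 48.4 and 0 CPM in cycling against 601 and 363 CPM in non-cycling macrophages (lower in both tumours, log2 fold −3.99, SE 0.42, edgeR adjusted p = 6.38e-19), and at a log2 fold of −3.02 (edgeR adjusted p = 2.19e-09) against the Arg1-limited comparators. Il10 had 1 and 0 UMIs in cycling against 92 and 120 UMIs in non-cycling macrophages (lower in tumour 1, log2 fold −4.26). Il10 passed the filter on low counts through the non-cycling sums alone, so its fall was fixed in advance. It is described without a test. With members taken from 3 cycle UMIs, the log2 fold of Il10 was −0.36 (edgeR adjusted p = 0.85). Retnla had 10 and 0 UMIs in cycling against 452 and 2 UMIs in non-cycling macrophages (lower in tumour 1, log2 fold −3.11, SE 0.49, edgeR adjusted p = 2.33e-08). The glycoprotein Gpnmb had no UMI in members and stood at 13.2 CPM in the non-cycling macrophages of tumour 1, at least 5.998-fold lower against a floor of 3 UMIs in the member sum, and Rnase2a likewise at least 7.05-fold lower. Both passed the filter on low counts through the non-cycling sums alone, so their fall was fixed in advance. Il10 and Gpnmb are among the 10 genes of the list that fell. DESeq2 left Il10, Retnla and Gpnmb uncalled (adjusted p = 0.062, 0.999 and 0.999). In the lipid list 6 of 13 tested fell and none rose (median −1.24; 3 fell without the tumour block), among them Plin2 and Fabp5. The lipid-droplet protein Plin2 stood at 235 and 121 CPM in cycling against 487 and 561 CPM in non-cycling macrophages (lower in both tumours, log2 fold −1.62, SE 0.33, edgeR adjusted p = 4.18e-05). The fatty acid binder Fabp5 stood at 162 and 60.4 CPM in cycling against 370.0 and 274 CPM in non-cycling macrophages (lower in both tumours, log2 fold −1.63, SE 0.38, edgeR adjusted p = 6.82e-04).

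Few genes of core metabolism passed. None of 20 tested oxidative phosphorylation genes (median 0.17) and none of 15 cholesterol synthesis genes (median 0.09) passed, which does not show that they were equal. Of 21 glycolysis and hypoxia genes 2 fell, and none did against Arg1-limited comparators. Aldolase, Aldoa, stood at 555 and 635 CPM in cycling against 842 and 883 CPM in non-cycling macrophages (lower in both tumours, log2 fold −0.90, SE 0.27, edgeR adjusted p = 0.018). The oxygen sensor Egln3 had 2 and 0 UMIs in cycling against 118 and 30 UMIs in non-cycling macrophages (lower in tumour 1, log2 fold −3.50). Egln3 passed the filter on low counts through the non-cycling sums alone, so its fall was fixed in advance. It is described without a test. All 20 nucleolus and ribosome biogenesis genes lay above the non-cycling level in tumour 1 (median 0.72), but Nop58 alone passed (104 and 1 UMIs in cycling against 170 and 47 UMIs in non-cycling macrophages; log2 fold 1.54, edgeR adjusted p = 0.00274, higher in 1 of 2 tumours). Its adjusted p was 0.185 with depth-matched comparators, and the list's median was 0.44 without mixed barcodes. Among checkpoint genes 2 of 12 tested fell, Clec4d (−1.54) and the inhibitory receptor Lilrb4a (−1.27), with edgeR adjusted p-values of 0.0188 and 0.00808.

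Macrophages with 1 to 4 cycle UMIs, 293 in tumour 1 and 37 in tumour 2, entered neither population above. Ezh2, the Polycomb methyltransferase, stood in tumour 1 at 75.5 CPM in cycling, 32.9 CPM in 1-to-4 and 11.4 CPM in non-cycling macrophages, and in tumour 2 at 90.6, 42.7 and 5.33 CPM. Ccl6 stood at 216, 609.7 and 985 CPM in the same order in tumour 1, and at 181, 666 and 1058 CPM in tumour 2. Both genes thus had an intermediate level in each tumour. Apoe was intermediate in tumour 1 (10615, 25364 and 30114 CPM), whereas in tumour 2 the 1-to-4 level lay at the non-cycling one (8642, 21127 and 21223 CPM). Cd74 had the same pattern, with 10485, 22893 and 23688 CPM in tumour 2. Ezh2 was named after its values were seen.

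**Figure D4:**
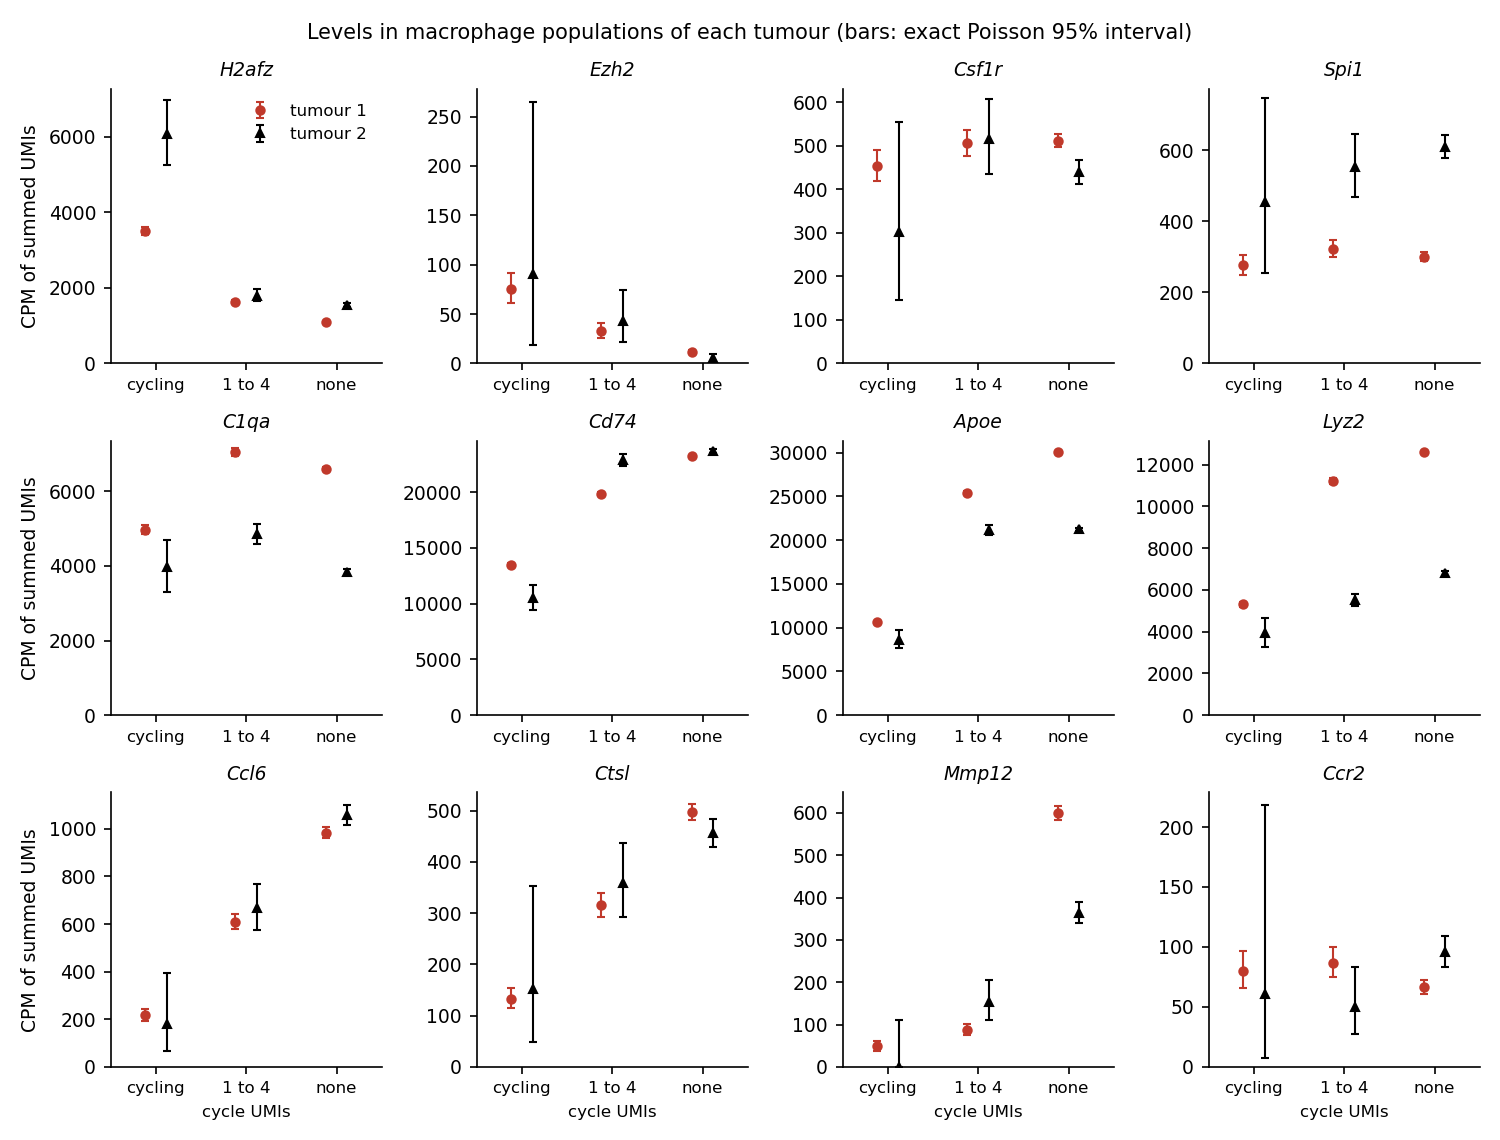
CPM of single genes in summed UMIs of cycling macrophages, macrophages with 1 to 4 cycle UMIs and macrophages with none, in tumour 1 (circles) and tumour 2 (triangles), with exact Poisson 95% intervals for counting error. H2afz and Ezh2 have their highest values in the cycling populations of both tumours, while Cd74, Apoe, Lyz2, Ccl6, Ctsl and Mmp12 have their lowest. The wide bars are the 3 cycling barcodes of tumour 2. There the cycling bars of Ezh2, Ctsl and Mmp12 overlap the bars of 1 to 4 cycle UMIs.

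Markers of other cells differed between the populations. Fibroblast markers summed to 1208 CPM in cycling and 237 CPM in non-cycling macrophages of tumour 1, with 1575 of 1647 member UMIs in 5 barcodes, and to 0 and 11.996 CPM in tumour 2. Epithelial markers summed to 373 against 219 CPM in tumour 1 and to 181 against 488 CPM in tumour 2. With all barcodes, 5 fibroblast genes and Krt8, Krt18 and Cdkn2a passed as higher; without mixed barcodes none of 4 fibroblast and 9 epithelial genes tested did. Col1a1, the collagen alpha chain, had 352 and 0 UMIs in cycling against 376 and 2 UMIs in non-cycling macrophages (higher in 1 of 2 tumours, log2 fold 2.25, SE 0.52, edgeR adjusted p = 5.29e-04), and without mixed barcodes a log2 fold of −0.30. Of 103 Prtn3 UMIs in the members of tumour 1, 100 lay in the 7 mixed barcodes, as did 173 of 180 H19 UMIs and 42 of 44 Egr1 UMIs, and these 7 had a median of 28256 UMIs against 9831 in the other 116. Jchain, of plasma cells, had 27 and 1 UMIs in cycling against 870 and 50 UMIs in non-cycling macrophages (lower in tumour 1, log2 fold −2.50, SE 0.57, edgeR adjusted p = 5.33e-04). Of its list, 700 UMIs lay in 1 non-cycling barcode of tumour 1. In tumour 2 alone its log2 ratio was −0.12, from 1 member UMI, which shows no direction. Endothelial markers summed to 35.9 against 31.6 CPM in tumour 1 and to 0 against 35.5 CPM in tumour 2. Dendritic markers summed to 28.6 against 17.2 CPM and 0 against 56.9 CPM. Mast and erythroid markers summed to 5.13 against 8.92 CPM and 0 against 2.22 CPM.

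**Figure D5:**
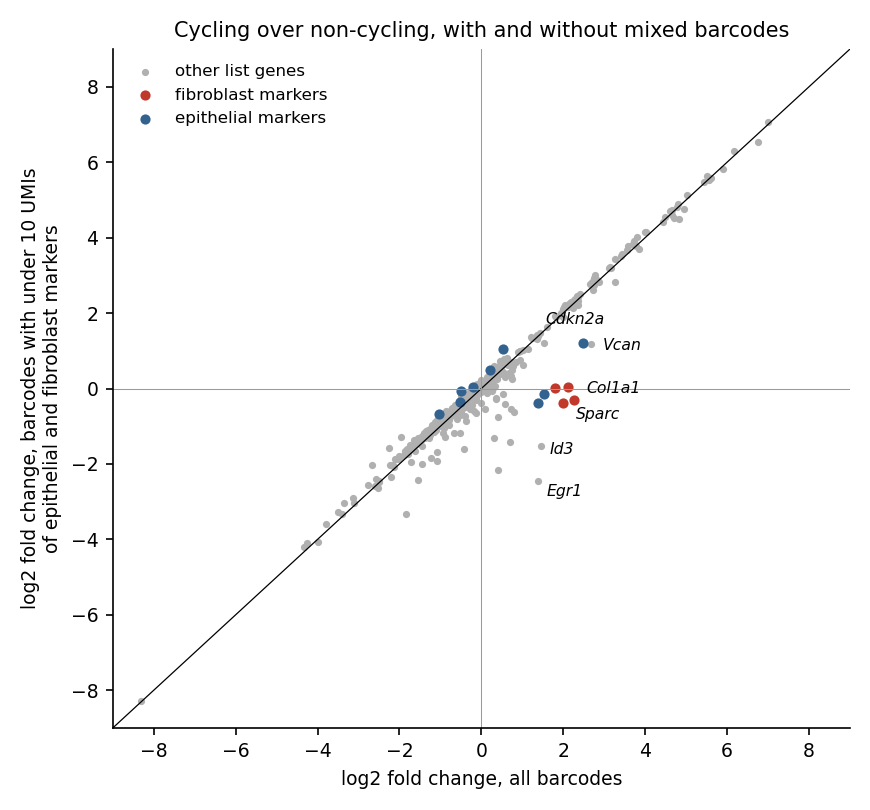
Log2 fold change of list genes, cycling over non-cycling macrophages, without barcodes holding 10 or more epithelial and fibroblast marker UMIs (vertical axis) against all barcodes (horizontal axis). Fibroblast (red) and epithelial (blue) markers that were higher with all barcodes, such as Col1a1, lie near 0 or below it without the mixed ones, except Cdkn2a; Id3 and Egr1 change sign, and most other genes (grey) lie near the diagonal.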

How the data were processed

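Cells of 4 libraries were sequenced with 10x Chromium 3′ chemistry, 1 library each. The authors deposited UMI counts per gene and barcode, made with Cell Ranger on mm10 (GRCm38) per the submitters' processing notes; the version is not given in the sources used here. Library totals ran between 6722044 and 23736366 UMIs. Members and gene lists were chosen with earlier results of these data known. Comparators met the same limits of 500 genes and 10% mitochondrial UMIs, with no Arg1 limit. Cells are not replicates: UMIs were summed per tumour and population (n = 2 tumours), filtered with filterByExpr, scaled with TMM and tested with edgeR 4.0.16 in R 4.3.3, with the tumour as a block, because both populations of a tumour come from 1 library. P-values then rest on counting error and on a spread estimated over all genes together, with 1 residual degree of freedom. They cover no more than these 2 tumours, which the labels do not tie to separate mice. Named genes were the label and rule genes, the 10 largest rises and falls outside the cell cycle lists with 1 sign in both tumours, up to 4 called genes per list (where none passed, the 2 most abundant), Brca1 and Trp53. Some others fall outside these rules, among them Lyve1, Cd163, Prtn3 and H19, and are not planned picks. Several of the others are said above to have been chosen after their values were seen. Alternatives were DESeq2 1.42.0, RLE or no scaling factors, no block, no filter, other limits on cycle UMIs, Arg1-limited or depth-matched comparators, thinning and removal of the highest Scrublet scores (scanpy 1.11.5). Scrublet's automatic limit marked 0 and 8 barcodes in tumour 1 and tumour 2 and was taken not to have worked in tumour 1. No barcode shared between libraries was removed. The tests were tried on simulated counts first. Some results are not reported here.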

Additional observations from a re-analysis of the deposited data

Results flagged for a closer look

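In the 5 months library, which entered no comparison of cycling with non-cycling macrophages, 6.41% of macrophage-gated barcodes had at least 1 UMI of the 5 cycle genes (15 of 234, exact 95% interval 3.63 to 10.4%), above the limit that a count of 0 allows, 1.28% at 3 counts. The same share was 25.8% in tumour 1 and 10.5% in tumour 2, at greater depth. No cell type was taken as free of these genes, so the part of free RNA was not tested.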

How the results depend on the processing

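The numbers of genes higher and lower in cycling macrophages, 276 and 158, were 153 and 82 with DESeq2, 82 and 25 with every barcode thinned to 4000 UMIs, and 567 higher with no filter on low counts. Scaled by totals alone, an alternative chosen after seeing the data, 479 were higher and 123 lower. Both counts were within 1.5 times of their values with RLE factors, 3 cycle UMIs, Arg1-limited or depth-matched comparators, the highest doublet scores removed and mixed barcodes removed. The limit of 10 cycle UMIs could not be fitted, since tumour 2 has no such barcode. The share of cycling macrophages ran between 0.787 and 7.39% when 1 tumour was left out.

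Without the replicate block, which pairs the populations of a tumour, 179 genes were higher and 87 lower, and 26 of 106 named results lost their call, among them Ctsd, Fcgr4, Fcgr2b, Fabp5, Cbr2, Gas6, Zeb2, Id2 and Btg1; Ccr7 gained one.

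Without mixed barcodes, also chosen after seeing the data, the log2 folds of Id3, Egr1, Krt18, Krt8, Col1a1 and Sparc turned to −1.53, −2.46, −0.15, −0.38, −0.30 and −0.38, and 11 of 102 named results lost their call. Without tumour 1, 37 of 60 named results moved beyond the limits set, 1 reversed and 22 did not; without tumour 2, 15 of 101 moved. The reversed fold, of Nop58, was −0.027 without tumour 1 and 1.67 without tumour 2. Calls were lost for 40 of 106 with DESeq2, 35 of 75 with thinning and 9 of 83 with depth-matched comparators. With members from 3 cycle UMIs 5 of 106 lost theirs. Leaving out 1 tumour leaves no residual degrees of freedom, so those are values with no test. The 33096 UMIs of the tumour 2 members limit every value there.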
